A study of Gossypium barbadense and Gossypium hirsutum with 8 samples.

Results

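The 4 RNA-seq libraries of Gossypium hirsutum fibers were followed from 5 to 20 days post anthesis (DPA), out of 8 libraries in the series, and were taken by species and age from the sample labels. Gossypium hirsutum is upland cotton, a tetraploid with an A and a D subgenome. Total RNA of fibers was sequenced at 5, 10, 15 and 20 DPA, with 1 library per stage, and the other 4 libraries hold Gossypium barbadense fibers of the same ages. The labels name no cultivar, treatment or number of plants, and all 8 libraries are of the same tissue. The last stage is labelled 20 DPA, while the sample titles carry the number 25, so the length of the last interval is uncertain.

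A cotton fiber is a single cell of the ovule epidermis. It first elongates within an extensible primary wall and later deposits a thick secondary wall of nearly pure cellulose. Upland cotton is grown for these fibers, whose length is set during elongation and whose strength rests largely on the later wall. The deposited identifiers carry no gene names and 0 of 59006 matched the available G. barbadense reference table, so no gene below is given a function, and the fiber label could not be checked against fiber or seed-coat markers. An identifier such as Gh_D10G1142 places a gene on chromosome D10, and identifiers with Sca lie on unplaced scaffolds.

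Levels are given as rescaled RPKM. RPKM is a read number divided by gene length and by library size, and each library was here brought to a sum of 300000. In order of age the deposited columns summed to 138198, 326872, 252850 and 298338, so they were multiplied by 2.17, 0.918, 1.19 and 1.01. The steps between low values showed similar library sizes behind these sums, between 0.975 and 1.16 relative to the 5 DPA library of G. barbadense. By this estimate a rescaled level of 5 rested on about 15.3 reads at 5 DPA and on 37.1, 29.0 and 39.3 reads at the later stages, for a gene of the median read value. Low levels at 5 DPA were the least precise. With 1 library per stage there is no replicate error and no test, and differences are given by size. Because fibers were sampled in bulk, fewer cells expressing a gene and less RNA per cell cannot be told apart.

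Fiber transcripts became concentrated in fewer genes with age. At 5 DPA the 642 most abundant genes made up 50% of the summed RPKM, while 531, 313 and 152 genes did so at the next stages. The 10 most abundant genes took 11.8%, 13.8%, 24.1% and 24.0% at the 4 stages, so this share was already at its late level at 15 DPA. The 100 most abundant genes took 25.6%, 28.4%, 37.9% and 45.4%, a share that was still higher at 20 than at 15 DPA. The number of genes at a level of 5 or more went from 7475 at 5 DPA to 6790, 6320 and 4992, whereas genes at 500 or more numbered 36, 37, 28 and 51. Unlike the shares, these counts depend on the scaling, whose factor was 2.17 at 5 DPA and 0.918 at 10 DPA. They were not made under other scalings. At 20 DPA 32482 listed genes stood at 0, against 23271, 19138 and 23762 at the earlier stages.

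**Figure D1:**
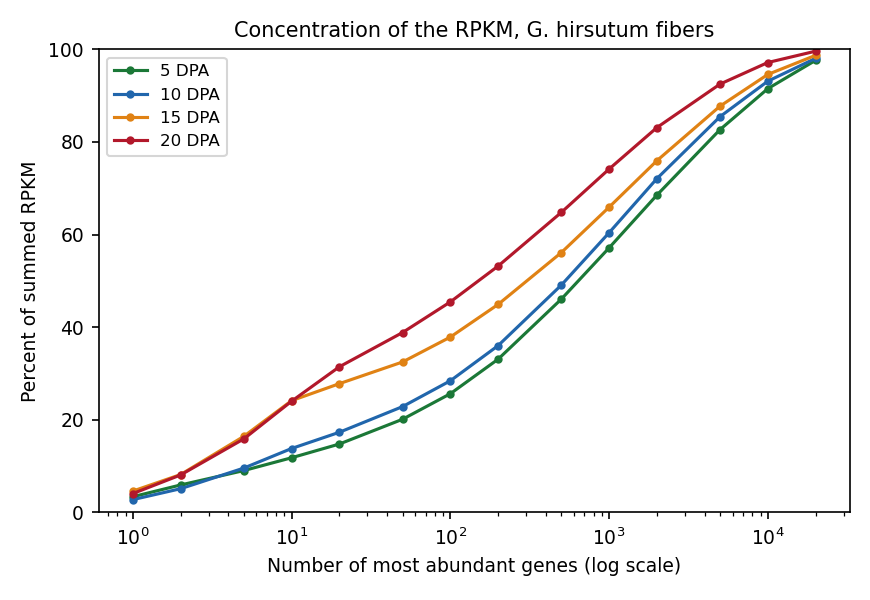
Percent of the summed RPKM (vertical axis) held by the most abundant genes of each G. hirsutum library, against the number of genes counted (horizontal, log scale); each line is 1 library. The 15 and 20 DPA lines lie above the 5 and 10 DPA lines, and at 100 genes the 4 lines stand at 25.6%, 28.4%, 37.9% and 45.4% in order of age.

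The step from 15 to 20 DPA moved the largest part of the transcript pool of the 3 steps, and the step from 10 to 15 DPA the smallest. Measured as the share of the summed RPKM that passed from genes that lost share to genes that gained it, 33.4% changed hands from 5 to 10 DPA, 28.4% from 10 to 15 DPA and 39.4% from 15 to 20 DPA. This measure depends on no threshold and on no scaling between libraries. As the length of the last interval is uncertain, these are sizes of steps and not rates. When the 100 most abundant genes were left out, 34.1%, 29.0% and 38.7% changed hands. Between 5 and 20 DPA 54.5% changed hands. The 20 genes with the largest gains accounted for 7.37 percentage points in the first step, 12.1 in the second and 16.9 in the last. Losses were spread over more genes in the first and second steps, where the 20 largest came to -5.85 and -3.09 points, and reached -11.8 points in the last step.

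Across the 10586 genes that reached a level of 5 in at least 1 of the 4 libraries, neighbouring stages were more alike than distant ones. Across genes, which are not independent replicates, Spearman's rho was 0.57 between 5 and 10 DPA, 0.68 between 10 and 15 DPA and 0.66 between 15 and 20 DPA. It was 0.52 between 5 and 15 DPA, 0.50 between 10 and 20 DPA and 0.29 between 5 and 20 DPA. All these libraries share the same gene models and the same depth limits at low levels.

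Single genes were counted as higher or lower when 2 stages differed at least 4-fold on the log2(level + 1) scale and the higher stage reached 5. From 5 to 10 DPA 594 of the 10586 genes were higher (5.61%) and 881 lower (8.32%). From 10 to 15 DPA 241 were higher (2.28%) and 840 lower (7.94%). From 15 to 20 DPA 562 were higher (5.31%) and 888 lower (8.39%). Fewest genes were past 4-fold in the middle step here, but not as deposited, where the last step had fewer. The middle step had the fewest higher genes under each of the 4 scalings described next. Among abundant genes, with a level of 50 or more at the higher stage, the last step had more higher than lower genes, 162 against 128. The first step had 117 and 125 such genes and the middle step 35 and 108. The 562 genes that were higher at 20 DPA went together from 1.05% to 20.0% of the summed RPKM, and the 888 lower genes from 14.3% to 2.26%. Since these genes were picked by the same values, the shares are descriptions.

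The balance of higher and lower genes depended on how the libraries were scaled, except in the middle step, where lower genes were in the majority under all 4 scalings tried. In the first step higher genes were 40.3% of those past 4-fold here, 89.2% as deposited (1924 higher, 233 lower), 52.0% by median-of-ratios scaling (571 and 528) and 43.3% by a sum without the 100 most abundant genes. In the middle step the values were 22.3%, 11.2% (148 and 1171), 20.1% and 31.5% (324 and 706). In the last step they were 38.8%, 51.3% (629 and 596), 68.3% (815 and 378) and 42.7%. The median gene changed by -0.04, -0.06 and -0.51 on the log2 scale in the 3 steps here, by 0.93, -0.37 and -0.32 as deposited, and by 0.14, -0.05 and -0.02 with median-of-ratios factors. A change of a gene in the last step is therefore best read against a median of -0.51.

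**Figure D2:**
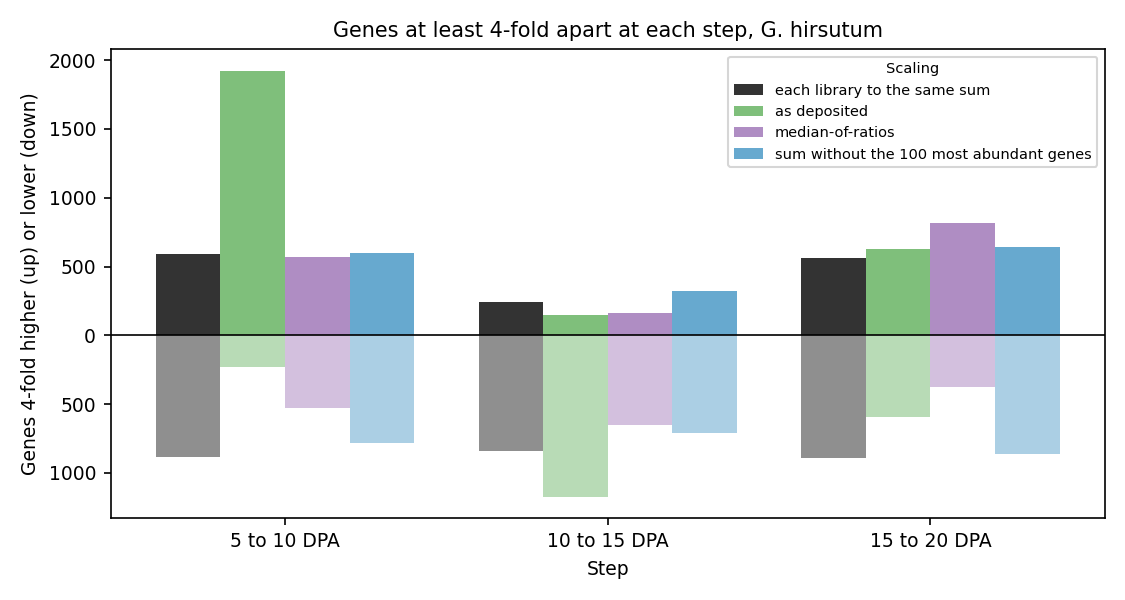
Number of G. hirsutum genes at least 4-fold higher (above the zero line) or lower (below it, paler) at each step, for 4 scalings of the libraries given by colour. In the middle step fewer genes were higher than lower under every scaling shown, while in the other steps the balance moved with the scaling, most in the first (594 higher here, 1924 as deposited).

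Over the whole course 924 genes were higher at 20 than at 5 DPA (8.73%) and 2602 were lower (24.6%), a split that also depended on the scaling (1564 and 844 as deposited, 1521 and 1198 with median-of-ratios factors). The higher genes made their largest rise late: it lay in the last step for 63.3% of them, in the first step for 28.9% and in the middle step for 7.79%. With median-of-ratios factors the shares were 63.5%, 29.3% and 7.23%, but as deposited the first step came first with 52.0%. The lower genes were spread more evenly, with the largest fall in the first step for 44.0%, in the middle step for 23.3% and in the last for 32.7%. As deposited these shares were 32.1%, 33.5% and 34.4%, and the first step no longer came first. Few genes moved evenly through the course: 17 (0.161%) were at least 2-fold higher at every step and 49 (0.463%) at least 2-fold lower at every step. Both numbers were counted under the scaling used here alone and may depend on it. The 17 went from 0.454% of the RPKM sum at the start to 9.30% at the end of the course, and the 49 from 1.24% to 0.0230%. Most of the share of the 17 lay in Gh_A03G1623 and Gh_D02G2038, which held 8.09% at 20 DPA. These form a near-equal pair that may share reads, as described below, so the share says little about the other genes of the set.

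The steadily rising genes included Gh_A08G1232 and Gh_D08G0181, named as those with the largest total rise. Gh_A08G1232 stood at 0.543, 28.5, 79.4 and 1019 rescaled RPKM at 5, 10, 15 and 20 DPA. Its level was higher at each stage than at the one before, and its largest gain in level came last. Gh_D08G0181 was listed at 0 at 5 DPA and stood at 40.5, 97.6 and 305 at the later stages. In the other direction, Gh_A13G1985 stood at 231, 29.5, 4.26 and 0, and Gh_D13G2384 at 236, 29.0, 5.48 and 0.895. The levels of both were close to each other at 5 and 10 DPA.

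Most genes were highest at an early stage under the scaling used here: of the 10586 genes, 3956 (37.4%) peaked at 5 DPA, 2687 (25.4%) at 10 DPA, and 2174 (20.5%) and 1769 (16.7%) at the last stages. This order did not hold under other scalings. As deposited 859 genes were highest at 5 DPA and 4657 at 10 DPA, and by median-of-ratios scaling 2168 were highest at 5 DPA and 3104 at 20 DPA. The minimum of 5 was applied to the levels under each scaling, so these counts are not over the same 10586 genes. The genes highest at 20 DPA were the fewest here, and held 53.4% of the summed RPKM at that stage and 8.80% at 5 DPA. Those highest at 5 DPA went from 44.2% at 5 DPA to 19.8%, 16.4% and 10.4%. Each set was picked by where its genes were highest, so its share being highest at its own stage follows from the rule.

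Genes with a sharp peak were most numerous at the ends of the course under the scaling used here, an order that did not hold as deposited. At 5 DPA 531 genes (5.02%) stood at least 4-fold above every other stage, at 10 DPA 155 (1.46%), at 15 DPA 45 (0.425%) and at 20 DPA 421 (3.98%). As deposited the numbers were 158, 427, 34 and 463, and by median-of-ratios scaling 320, 120, 25 and 570, each with the minimum of 5 applied to those levels. Of the genes found here, 101, 28, 13 and 145 reached a level of 50. The 421 genes of 20 DPA took 0.687%, 0.777% and 0.829% of the summed RPKM at the first 3 stages and 18.5% at 20 DPA. Their median level was 0.260, 0.541, 0.664 and 28.2, and 64 of them were listed at 0 at every earlier stage. The 531 genes of 5 DPA took 8.66% at 5 DPA and 0.748%, 0.584% and 0.254% later, with a median level of 18.5 and then 1.02, 0.807 and 0.211. The 155 genes of 10 DPA took 1.86% at their stage and the 45 genes of 15 DPA 0.576%. The sets were picked by these same values, so the shares are descriptions. In all 4 scalings, 158 of the 531 genes of 5 DPA, 107 of the 155 of 10 DPA, 22 of the 45 of 15 DPA and 419 of the 421 of 20 DPA met the same rule. The other scalings raised the 20 DPA library and lowered the 5 DPA library relative to each other, so these numbers show how the scaling acts and not that a set is more stable.

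**Figure D3:**
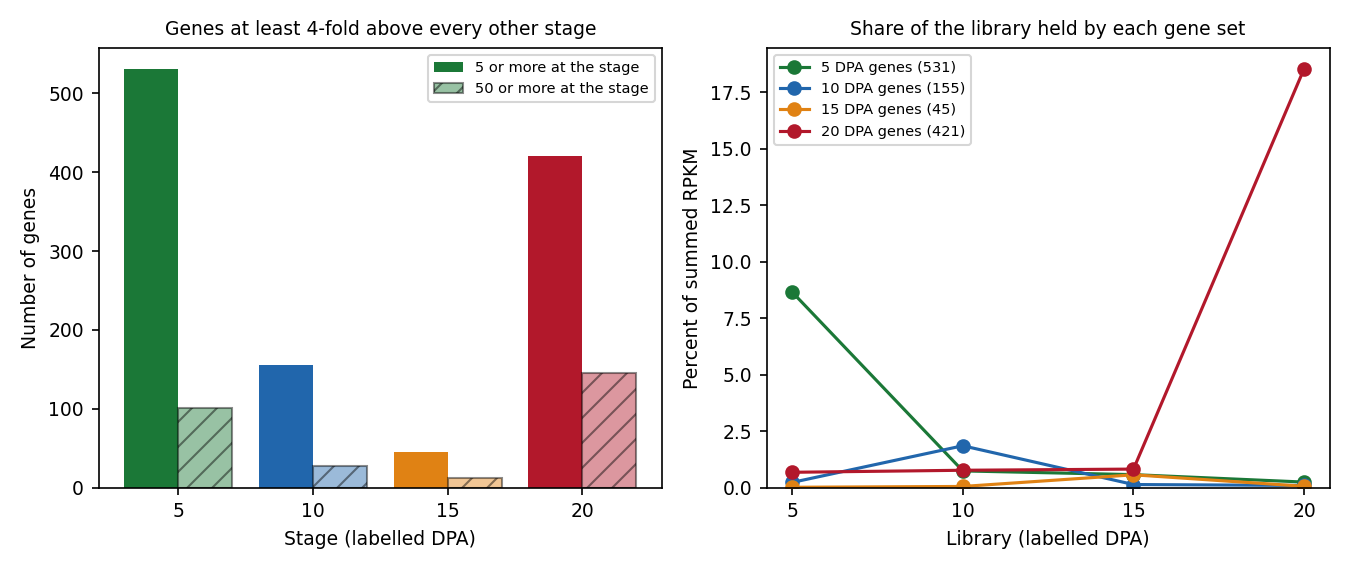
Left, number of G. hirsutum genes at least 4-fold above every other stage, by stage, at a level of 5 or more (solid bars) and of 50 or more (hatched bars). Right, percent of the summed RPKM that each of these 4 gene sets, picked by the same values, held in each library. The 20 DPA set stays under 1% until 15 DPA and holds 18.5% at 20 DPA, while the 5 DPA set starts at 8.66%.

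The sharp-peak sets lay on both subgenomes in about the proportion of all 10586 genes, of which the A chromosomes held 46.6%, the D chromosomes 48.9% and scaffolds 4.49%. Among the 20 DPA genes 45.8% were on A and 50.6% on D chromosomes, and among the 5 DPA genes 44.6% and 49.3%. In the small 10 and 15 DPA sets, 16 of 155 and 5 of 45 genes were on scaffolds (10.3% and 11.1%). The share of the summed RPKM on A chromosomes was 46.5%, 47.5%, 47.0% and 45.9% at the 4 stages, a range of under 2 percentage points.

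The largest margins at 20 DPA were those of Gh_D08G0544 and Gh_A08G0457, which were also the largest rises of the last step. Gh_D08G0544 was listed at 0 at 5, 10 and 15 DPA and stood at 3753 at 20 DPA, the tenth most abundant gene there. Gh_A08G0457 was listed at 0 at the same stages and stood at 3709. Both were thus seen at the last stage alone of the 4. Gh_D03G1684, another gene among the 20 most abundant at 20 DPA, was also listed at 0 before and stood at 2148. Loss at the last stage alone was shown by 280 genes (2.65%). They stood at 5 or more at every earlier stage and at least 4-fold below each of these at 20 DPA. They took 7.02%, 4.61%, 3.45% and 0.369% of the summed RPKM. By the same rule, a further 100 genes (0.945%) were at least 4-fold below every other stage at 5 DPA. They held 0.197% at 5 DPA and 1.88%, 2.45% and 4.60% after it. This rule asks for 5 or more at each of the other stages, whereas a sharp peak needs that level only at its own stage. The numbers of genes below every other stage were counted under the scaling used here alone. Both sets were picked by these values, so the shares are descriptions.

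The largest margins at 5 DPA were those of Gh_A08G0316 and Gh_D08G0414, the largest falls of the first step. Gh_A08G0316 stood at 1607, 12.2, 18.7 and 2.09 at the 4 stages, and Gh_D08G0414 at 1535, 11.1, 20.2 and 2.09. Both stood far above their later levels at 5 DPA, where they ranked 7 and 9, and neither regained that level. In all 4 scalings Gh_A08G0316 was at least 4-fold higher at 5 than at 10 DPA. The identifiers next to them followed, as seen when the 20 most abundant genes were listed. Gh_A08G0315 stood at 994.6, 66.7, 76.1 and 7.57, and Gh_A08G0314 at 836, 59.7, 74.1 and 6.58. On chromosome D08, Gh_D08G0413 stood at 928, 63.1, 76.4 and 4.16, and Gh_D08G0412 at 946.6, 62.9, 74.3 and 8.33. These 6 identifiers, 3 in a row on each of A08 and D08, were all among the 20 most abundant genes at 5 DPA and at no other stage. How reads that match several of such like-levelled genes were assigned is not given, so their single values are uncertain.

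At 10 DPA the largest margins were smaller. Gh_D01G2338 stood at 3.54, 63.4, 1.86 and 0, and Gh_A05G1452 at 30.2, 352, 28.1 and 8.42. Both stood over 10 times higher at 10 DPA than at any other stage. The largest rises into 10 DPA were those of Gh_A05G0249, at 0, 118, 38.7 and 18.7, and Gh_D08G1194, at 0, 59.0, 2.11 and 4.99. The first was lower at each later stage and the second was near its starting level by 15 DPA. The largest falls out of 10 DPA were those of Gh_Sca101939G01, at 54.6, 348, 1.86 and 6.87, and Gh_A01G0667, at 9.29, 57.9, 0 and 0.

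The sharp peaks at 15 DPA were the fewest of the 4 stages under each scaling. Gh_A01G0338 stood at 63.3 at 15 DPA and was listed at 0 in the other 3 libraries and in all 4 of G. barbadense, so its whole signal came from 1 library. Gh_A02G0058 stood at 0, 1.83, 51.1 and 5.17, and Gh_D02G1820 at 1.71, 1.40, 64.9 and 8.65. After Gh_A01G0338, the other largest fall of the last step was that of Gh_Sca090787G01. It stood at 143, 29.7, 129 and 0.935, high at 5 and 15 DPA and low between.

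A dip between 2 higher stages was rare: 8 genes were at least 4-fold lower at 10 or 15 DPA than both before and after, with 50 or more on both sides. The deepest were those of Gh_D07G1207, at 684, 18.4, 369 and 94.3, and Gh_A11G2616, at 851, 49.5, 351 and 107. Gh_D11G2930, the next deepest, stood at 834, 54.1, 328 and 80.7, close to Gh_A11G2616 at each stage. All 3 were lowest at 10 DPA.

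The most abundant genes replaced each other in part. The 20 most abundant genes of each stage made up 42 genes in all, of which 8 were in the list at all 4 stages, 5 at 3, 4 at 2 and 25 at 1 stage. Of the 25, 9 were in the 5 DPA list, 4 in each of the next lists and 8 in the 20 DPA list. Adjacent lists shared 11 genes between 5 and 10 DPA, 15 between 10 and 15 DPA and 11 between 15 and 20 DPA, and the first and last lists shared 8. The 8 lasting genes held 10.1%, 11.8%, 20.9% and 15.3% of the summed RPKM. The 9 genes of 5 DPA alone went from 3.14% to 0.275%, 0.553% and 0.213%, and the 8 genes of 20 DPA alone from 0.291%, 0.369% and 0.291% to 6.78%.

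The same 3 genes led at 5, 10 and 15 DPA. Gh_D10G1142 stood at 10164, 7080, 13825 and 5346 at the 4 stages and ranked 1, 2, 1 and 7. Gh_A10G1332 stood at 7623, 6143, 10698 and 4209 and ranked 2, 3, 2 and 9. Gh_A09G2303 stood at 3394, 8287, 8542 and 1881, and ranked first at 10 DPA and 16 at 20 DPA. All 3 were highest at 15 DPA and lowest at 20 DPA under the scaling used here. The direction between 5 and 20 DPA depended on the scaling: the log2 change of Gh_D10G1142 was -0.93 here and 0.18 as deposited. Gh_A10G1331, whose identifier is next to Gh_A10G1332, took another course, at 2470, 2003, 1390 and 65.3.

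At 20 DPA the lead passed to genes that had been climbing since 5 DPA. Gh_A03G1623 stood at 670, 2218, 4746 and 12210 and ranked 24, 9, 9 and 1. Gh_D02G2038 stood at 653, 2204, 4819 and 12066 and ranked 26, 10, 8 and 2. Gh_A06G0811 stood at 803, 2910, 5488 and 8708 and ranked 20, 7, 7 and 3. The log2 change from 5 to 20 DPA was 4.19, 4.21 and 3.44 for these genes. Below them stood genes with no such history, such as Gh_D08G0544 at rank 10 and Gh_A08G0457 at rank 11, so gradual risers and late arrivals both filled the top of the 20 DPA list.

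**Figure D4:**
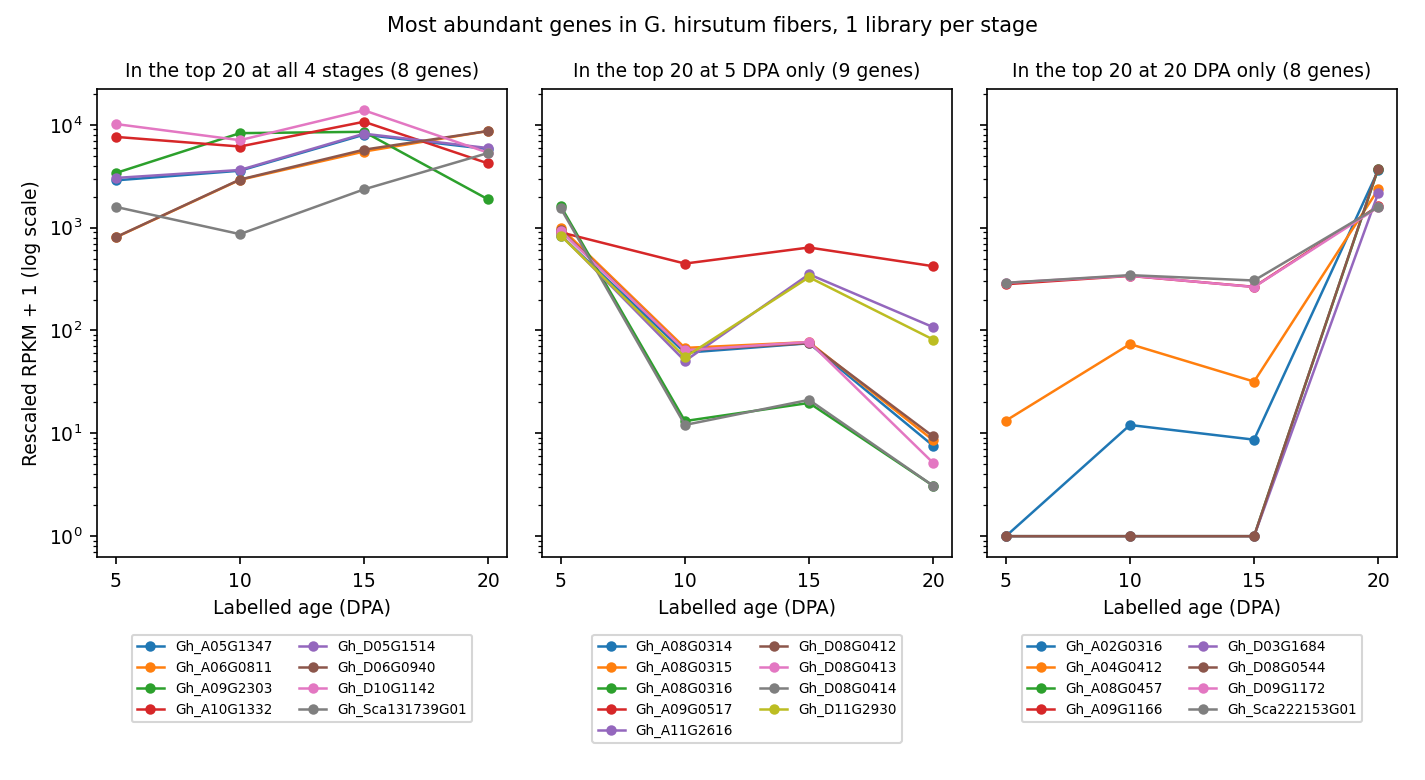
Levels of the most abundant G. hirsutum genes by labelled age, as rescaled RPKM + 1 on a log axis, 1 line per gene and 1 library per point; the panels hold the 8 genes in the top 20 at all stages, the 9 at 5 DPA only and the 8 at 20 DPA only. Of the 9 early genes, the 6 of A08 and D08 fall under 70 at 10 DPA, and 3 of the late genes lie at 0 until 15 DPA and exceed 2000 at 20 DPA.

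Many leading genes formed A–D pairs of nearly equal level. Among the 100 genes with the highest mean share, 10 A and D pairs lay within 10% of each other at all 4 stages, 9 of them on chromosomes of the same number. The pairs included Gh_A03G1623 with Gh_D02G2038, Gh_A06G0811 with Gh_D06G0940 and Gh_A08G0316 with Gh_D08G0414. Other pairs kept a middle course: Gh_A05G1347 stood at 2879, 3574, 8007 and 5798, and Gh_D05G1514 at 3039, 3632, 8187 and 5935. Such pairs may share reads, so their levels are not separate measurements.

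Set beside G. barbadense treated in the same way, the order of the steps was the same. There 32.9%, 26.8% and 42.9% of the summed RPKM changed hands in the 3 steps, the last of the same uncertain length. In the last step 624 genes were higher and 2059 lower out of 11929 (5.23% and 17.3%), against 562 and 888 in G. hirsutum. At 20 DPA 1232 G. barbadense genes stood at least 4-fold below every other stage (10.3%), against 280 in G. hirsutum. With 1 library per species and stage these differences were not tested. The counts of both species are for libraries brought to the same sum, and those of G. barbadense were not made under other scalings. In G. hirsutum the last step had 815 higher and 378 lower genes by median-of-ratios scaling, so the contrast of counts may depend on the scaling. Both species are listed by the same 59006 identifiers. Whether reads of both species match these gene models equally well was not tested, so levels are set side by side only as listed. Gh_D08G0544 was late in both species, at 0.244, 0.125, 0 and 1192 in G. barbadense. The early gene Gh_A08G0316 stood at 10.5, 5.47, 12.6 and 0.990 there, and Gh_D10G1142 at 346, 1455, 4090 and 2767. Among the leaders of 20 DPA, Gh_A03G1623 stood at 846, 581, 1780 and 7909 in G. barbadense, and at 2218 at 10 DPA in G. hirsutum. Its lower level at 10 than at 5 DPA in G. barbadense was not seen as deposited. The factors of the 5 and 10 DPA columns were 1.16 and 0.596 here, and 0.869 and 0.570 by median-of-ratios scaling. They were 0.971 and 0.522 by a sum without the 100 most abundant genes. With each of these sets of factors the level was lower at 10 DPA. In the same libraries Gh_D02G2038 stood at 868 at 5 DPA and 579 at 10 DPA, and Gh_A06G0811 at 1131 and 1296.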

How the data were processed

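Per the submitters' processing notes, cutadapt, Bowtie2 and edgeR were used, with no version or role. The authors deposited 1 table of RPKM, with 8 value columns and 59006 genes, and each column was matched to a sample by title. The genome build is not given in the sources used here, nor are the annotation, the library size behind the RPKM and the handling of reads matching more than 1 gene. Total RNA was treated with DNase before library preparation, per the labels' protocols. Each column was divided by its sum and multiplied by 300000. Levels were compared as log2(level + 1), which understates changes of low genes, with a 4-fold threshold and a minimum level of 5 at the higher stage. Genes counted as below every other stage had to reach 5 at each of those stages. No p-value was computed, since each stage has 1 library.

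Relative library size was read from the steps between low values. Of 40389 genes above 0 in 4 or more columns, 79.7% had low values that came out as whole reads to within 0.15, with a median of 0.147 RPKM per read in the 5 DPA library of G. barbadense. A gene passed if any of several trial read sizes, each refitted to its own low values, met this. The share that would pass without whole reads was not computed, so 79.7% alone does not establish the read numbers, which are estimates. Recovered reads were not used in a count test.

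Genes were named by rule: the 3 highest at each stage, the 2 largest rises and falls of each step, the 2 largest margins at each stage, the 2 largest steady rises and falls, and the 2 deepest dips, at a level of 50 or more in the higher library for all but the first. Genes next to these, the lists of the 20 most abundant and the near-equal pairs were chosen after values were seen. The rules and thresholds were chosen with earlier results of these data known. The lists of named fiber and other-tissue genes could not be matched to the identifiers and were not used. The counting was checked on simulated data with the same read size for all genes and stages and known changes in picked genes. That check bears on the counting steps and not on the accuracy of the calls in these libraries. Python 3.11.15, pandas 2.3.3, numpy 2.4.6 and matplotlib 3.10.9 were used.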

Additional observations from a re-analysis of the deposited data

Results flagged for a closer look

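The 2 genes with the deepest dips at 10 DPA went the other way in G. barbadense between 5 and 10 DPA, each by at least 4-fold. The log2 change of Gh_D07G1207 was -5.14 in G. hirsutum (684 to 18.4 rescaled RPKM) and 2.71 in G. barbadense (58.4 to 388). That of Gh_A11G2616 was -4.08 in G. hirsutum (851 to 49.5) and 2.28 in G. barbadense (95.8 to 469). With 1 library per species and stage, the difference was not tested.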

How the results depend on the processing

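The share of the summed RPKM that changed hands moved by at most 1 percentage point when scaffold identifiers or the 100 most abundant genes were left out. The following counts moved by over 1.5 times, and the cause was not tested. With a pseudocount of 0.1, 383 genes were higher from 10 to 15 DPA and 250 and 71 peaked sharply at 10 and 15 DPA. As deposited, 1924 genes were higher and 233 lower from 5 to 10 DPA, 148 were higher from 10 to 15 DPA, 158 and 427 peaked sharply at 5 and 10 DPA, and 859 and 4657 were highest at 5 and 10 DPA. With median-of-ratios factors, 528 genes were lower from 5 to 10 DPA and 378 from 15 to 20 DPA, 320 and 25 peaked sharply at 5 and 15 DPA, and 2168 and 3104 were highest at 5 and 20 DPA. With no minimum level, 19344, 13629, 10393 and 5995 genes were highest at the 4 stages, since more genes were counted. Among named genes, the change from 5 to 20 DPA turned from negative to positive for Gh_D10G1142 (0.18 as deposited), Gh_A10G1332 (0.25 as deposited, 0.042 by median-of-ratios scaling) and Gh_A09G2303 (0.26 and 0.048). No paired analysis was possible because each stage has 1 library of the species. By the estimates from low values, a given rescaled level rests on the fewest reads at 5 DPA. The estimated library sizes were similar, and that column was multiplied by 2.17.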

Other observations

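Some sharp-peak genes had a neighbour in the same set. Of the 531 genes of 5 DPA, 104 had the next identifier on the chromosome among the 10586 genes, and in 19 of these cases (18.3%) that gene was in the 5 DPA set too, against 5.02% of all 10586. For the 421 genes of 20 DPA the numbers were 11 of 77 (14.3%), against 3.98%. Neighbouring copies may share reads, and this was not tested.

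Some courses alternated. In the 10586 genes, 146 (1.38%) were at least 2-fold higher, then lower, then higher over the 3 steps, and 325 (3.07%) went lower, higher and lower. The 146 held 0.633% of the RPKM sum at the first stage and 3.44% at the last. Both counts were made under the scaling used here alone. Its factors of 2.17, 0.918, 1.19 and 1.01 themselves go lower, higher and lower with age, so the counts may depend on it. Gh_D04G0204, chosen after its values were seen, stood at 443, 2423, 683 and 2449 rescaled RPKM and was among the 20 most abundant genes at 10 and 20 DPA.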
